A study of Mus musculus with 4 samples.

Results

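The genes described here are 40 transcripts of the ATF4 response, the transcriptional programme that cells switch on when amino acids run short or when misfolded protein accumulates, together with the aminoacyl-tRNA synthetases that this programme includes. They were chosen by gene name among the probes of 4 two-colour mouse arrays. The 40 genes had 68 of the 41174 probes. They fall into 10 regulators and stress targets, 11 synthesis enzymes, 8 amino acid transporters and 11 cytosolic tRNA synthetases. After a filter on dim probes, 36 of the 40 genes and 59 of their 68 probes could be compared, among 12367 genes and 17109 probes in all.

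ATF4 is a basic leucine zipper transcription factor whose messenger RNA is translated better when the initiation factor eIF2 is phosphorylated, so its protein can rise without its transcript. With C/EBP family partners it binds composite elements near genes for amino acid synthesis, amino acid uptake and tRNA charging. The kinases that phosphorylate eIF2 sense uncharged tRNA, endoplasmic reticulum stress, double-stranded RNA or heme shortage, and autophagy itself returns amino acids from degraded protein to the cytosol.

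The cells were primary aortic smooth muscle cells of mice, strain given as C57LB/6, of the genotypes Atg7F/F SM22α-Cre+ and Atg7+/+ SM22α-Cre+. F/F denotes the floxed allele of Atg7, the E1-like enzyme of autophagosome formation. Both genotypes carried Cre recombinase driven by the SM22α promoter, which acts in smooth muscle, so the Atg7+/+ cells also express Cre. The animals' age and the number of animals behind an extract are not given in the sources used here. All cells grew in DMEM/F-12 medium with 10% FBS and were taken at passages 4 to 10, without an added stressor or a shortage of amino acids that the labels name. Each genotype had 2 biological replicates, called extracts 1 and 2 below. Extracts of the same number were hybridised together on 2 arrays with exchanged dyes, so there are 4 arrays and n = 2. With 2 replicates, each p from limma joins the spread between a gene's 2 ratios with a prior spread estimated from all genes. The prior supplied 2.18 of the 3.18 degrees of freedom. Such a p describes these extracts only, and 12367 genes were tested at once.

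Per channel, 43.3% to 45.5% of spots were well above background and 0 were saturated. Atg7 was lower in the Atg7F/F extracts on every array, with log2 ratios between -1.57 and -0.96. Its adjusted p from limma was 0.938, and its mean ratio moved from -1.22 to -2.35 with the scanner software's processed signals. The labels do not name the floxed exon, so it is not known if its probe is in the part that Cre removes. All 7 smooth muscle markers were above background on at least 1 array, 6 of them past the filter. All 12 endothelial markers were also past it, while 3 of 9 macrophage and leukocyte markers, Ptprc, Adgre1 and Itgam, were not above background on any array. In such bulk extracts, fewer cells of a type and less RNA per cell cannot be told apart.

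The promoters of these genes were searched for an element of the composite kind that ATF4 binds with C/EBP partners. The 7 stretches below are printed because each holds the element before the start of a gene whose level was measured here. The element searched was TGATGNAA, a C/EBP-ATF composite core, on both strands (TTNCATCA on the other). It was searched in RefSeq promoter windows of build GRCm38.p6, from 250 bases before to 50 bases after the start. In the sequences, written 5′ to 3′ on the gene's own strand, capitals mark the match. The stretch of Asns is chr6:7693210-7693262 on the minus strand, with the match 23 bases before the start. That of Nupr1 is chr7:126625543-126625610 (minus, 110 bases before), that of Chac1 chr2:119351019-119351086 (plus, 193 bases before) and that of Vldlr chr19:27216790-27216857 (plus, 200 bases before). That of Pycr1 is chr11:120643814-120643881 (minus, 103 bases before), that of Aars chr8:111033700-111033767 (plus, 112 bases before) and that of Tars chr15:11399659-11399703 (minus, 15 bases before).
Asns: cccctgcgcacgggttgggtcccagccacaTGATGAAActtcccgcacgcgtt
Nupr1: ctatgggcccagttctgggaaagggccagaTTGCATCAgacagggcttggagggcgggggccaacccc
Chac1: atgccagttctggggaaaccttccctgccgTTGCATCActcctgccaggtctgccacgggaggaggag
Vldlr: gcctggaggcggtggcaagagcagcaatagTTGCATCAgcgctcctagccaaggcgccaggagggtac
Pycr1: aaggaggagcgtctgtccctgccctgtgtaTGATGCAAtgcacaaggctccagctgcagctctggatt
Aars: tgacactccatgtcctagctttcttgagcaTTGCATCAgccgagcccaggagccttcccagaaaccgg
Tars: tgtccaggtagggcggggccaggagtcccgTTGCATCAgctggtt
In 5 of these 7, Nupr1, Chac1, Vldlr, Aars and Tars, the match reads TTGCATCA on the gene's strand. Pycr1 holds the same 8 bases on the other strand, and Asns holds TGATGAAA.

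Of the 40 genes, 32 had a promoter window, and 12 of these 32 (37.5%) held at least 1 match, against 1219 of 27025 genes in the table (4.51%). A match lay wholly before the start in 8 of the 32, the 7 printed and Gars. By role, 5 of 8 tRNA synthetases held a match, against 4 of 10 regulators, 2 of 9 synthesis enzymes and 1 of 5 transporters. The matches of Iars, Yars and Trib3 lay after the start, that of Slc1a4 spanned it, and Aars held another 9 bases after it. The genes with no window were Aldh1l2, Cth, Lars, Nars, Slc1a5, Slc7a3, Slc7a5 and Wars. A match is a description of these letters, and its absence from a window says nothing about binding.

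**Figure D1:**
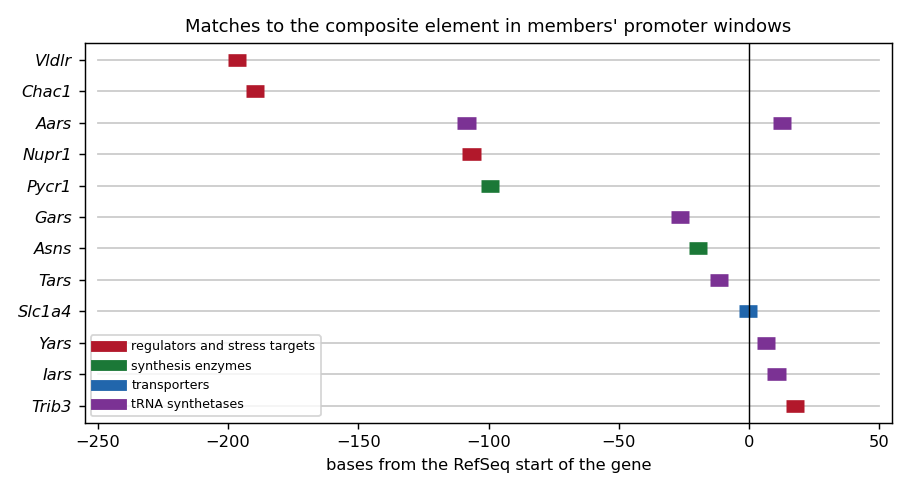
Position of each match to the composite element (coloured bar, 8 bases) along the promoter window of each gene that holds one (grey line, 250 bases before to 50 after the start), in bases from the RefSeq start, coloured by role. The 12 genes divide into 8 with a match wholly before the start and 4 with matches only over or after it.

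Most of the 36 measured genes had mean ratios above 0 (30 of 36, beside 6357 of the 12367 genes tested), that is, higher levels in Atg7F/F cells. None of the 36 passed the test. Their median log2 ratio of Atg7F/F over Atg7+/+ was 0.21, against 0.00 over all genes tested. It was 0.06 in replicate 1 and 0.34 in replicate 2. With limma, 0 of 36 had an adjusted p below 0.05 in either direction, as did 0% of all genes higher and 0% lower. The adjusted p of every measured gene of these lists was 0.9998, and the smallest of any gene on the arrays was 0.387. At an unadjusted p below 0.05, limma called 1 of the 36 higher (2.78%, Trib3) and 0 lower, beside 1.34% of all genes higher and 1.64% lower. The count that passed was also 0 in every other fit tried.

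The sign was the same on all 4 arrays for more of these genes than of the genes at large. It was positive for 12 of 36 (33.3%), beside 10.6% of all genes, and negative for 1 (2.78%), beside 9.95%. Slc7a3, one of the 12, passed the filter only through the genotype in which it was higher, and with detection required in both genotypes the count was 11 of 35, beside 10.5% of all genes. The 12 were Trib3, Nupr1, Asns, Aldh1l2, Aldh18a1, Psat1, Slc6a9, Slc7a5, Slc7a3, Eprs, Tars and Lars, and the 1 was Ddit3. When each array was centred on its median instead of by loess, only Trib3, Aldh1l2, Slc6a9, Slc7a5 and Slc7a3 of these 12 kept the sign, with Shmt2 added, and Ddit3 lost it. Under that centring 4.86% of all genes were higher on all 4 arrays and 2.14% lower. The levels of the extracts mostly overlapped. Both Atg7F/F extracts lay above both Atg7+/+ extracts for 2 of 36 (5.56%), Slc1a4 and Tars, beside 11.4% of all genes. For 0 of 36 did both lie below, beside 10.1% of all genes.

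**Figure D2:**
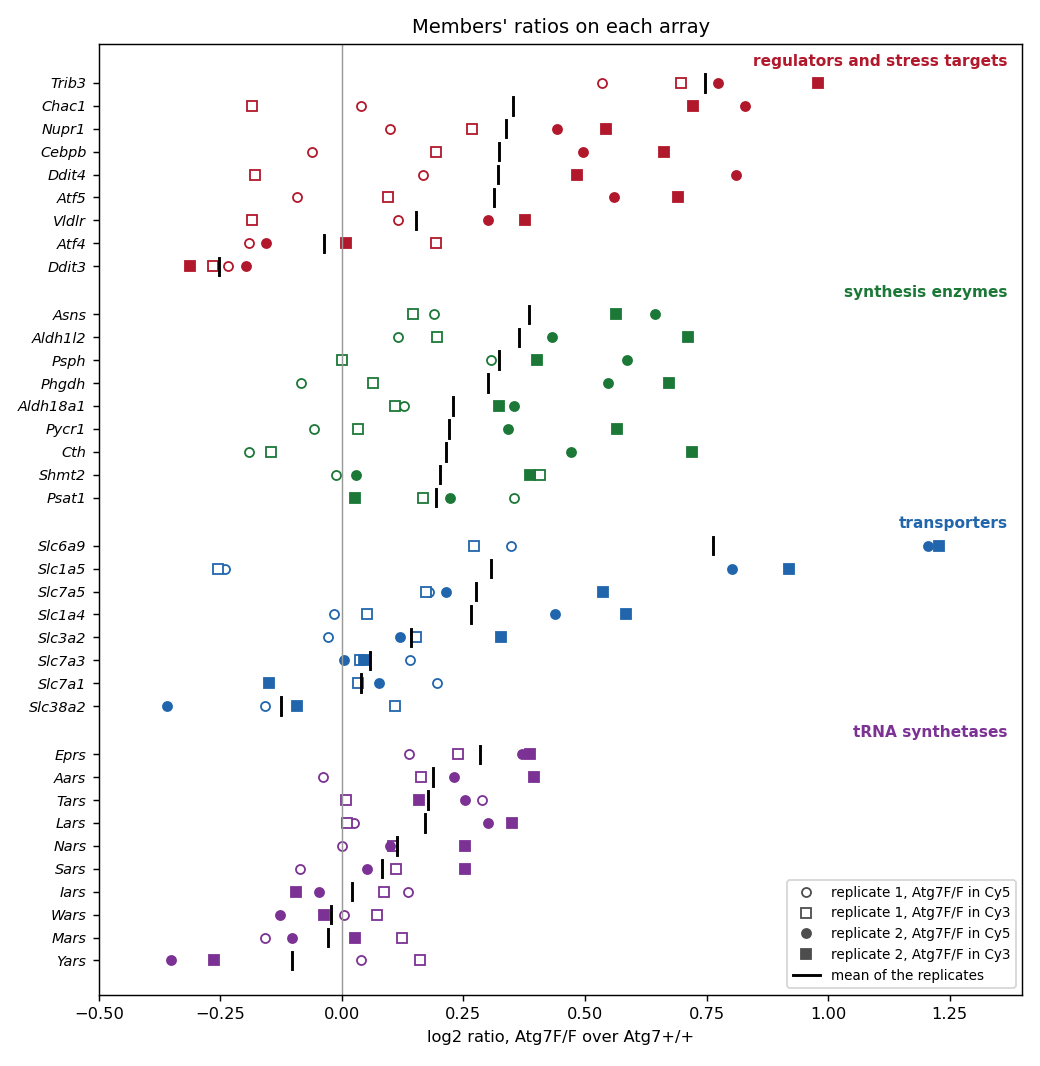
Log2 ratio of Atg7F/F over Atg7+/+ (horizontal axis) for the 36 measured genes, grouped and coloured by role, on each of the 4 arrays (open for replicate 1, filled for replicate 2, circles with Atg7F/F in Cy5 and squares in Cy3), with the mean of the replicates as a black bar. The filled symbols of Slc6a9, Slc1a5, Chac1 and Cth lie far to the right of their open ones, and all 4 symbols of Ddit3 lie left of 0.

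The transcript of ATF4 itself gave ratios on both sides of 0. The Atf4 probe (chromosome 15, 80087079 to 80087138 of mm9) had raw mean intensities of 804 (Cy5) and 598 (Cy3) in Atg7F/F extract 1 and of 750 and 606 in extract 2. In the Atg7+/+ extracts they were 726 (Cy5) and 648 (Cy3) in extract 1 and 825 and 730 in extract 2. The 4 array ratios were -0.19, 0.19, -0.16 and 0.01, and the mean was -0.04 ± 0.05 (SD, n = 2). It was 0.023 under median centring. The array reads transcript, not translation or protein.

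Ddit3 (CHOP), a stress-induced C/EBP family factor that ATF4 activates and that is tied to apoptosis, lay in the opposite direction to most of the list. Its raw intensities in Cy5 and Cy3 were 1179 and 784 in Atg7F/F extract 1, 1849 and 1396 in Atg7F/F extract 2, 1301 and 975 in Atg7+/+ extract 1 and 2395 and 1784 in Atg7+/+ extract 2. On the normalized log2 scale the levels were 9.86 and 10.79 in Atg7F/F and 10.11 and 11.04 in Atg7+/+. Within each pair the Atg7F/F extract was the lower, but the genotypes overlapped, since both second extracts exceeded both first ones. The ratio was -0.25 in each replicate (mean -0.25 ± 0.00, 1.19-fold lower), with an unadjusted p of 0.0543 from limma over all genes. The probes of Ddit3 and of Mars, which lie on opposite strands of chromosome 10, were 1118 bases apart and gave -0.25 and -0.01.

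Trib3, a pseudokinase that ATF4 and CHOP induce and that restrains ATF4 in turn, had the highest mean ratio among the regulators. Its raw intensities in Cy5 and Cy3 were 1598 and 1198 in Atg7F/F extract 1, 2888 and 2350 in Atg7F/F extract 2, 1032 and 777 in Atg7+/+ extract 1 and 1649 and 1359 in Atg7+/+ extract 2. The levels were 10.39 and 11.47 in Atg7F/F and 9.77 and 10.59 in Atg7+/+, so Atg7F/F extract 1 lay below Atg7+/+ extract 2. All 4 array ratios were above 0 (0.54, 0.70, 0.77 and 0.98), with a mean of 0.75 ± 0.18 (1.68-fold) and an unadjusted p of 0.00566 from limma. Its other probe, 610 bases away, gave 0.46 with 1 array below 0 at -0.19.

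Nupr1, a small chromatin-associated stress protein, was the other regulator above 0 on all 4 arrays. Its levels were 14.19 and 14.95 in Atg7F/F and 14.01 and 14.46 in Atg7+/+, and its ratios were 0.18 and 0.49 in replicates 1 and 2. Chac1, which degrades glutathione, had levels of 10.53 and 11.43 in Atg7F/F and 10.61 and 10.66 in Atg7+/+. Only Atg7F/F extract 2 was high, so its ratios were -0.07 and 0.78.

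The same shape, near 0 in replicate 1 and well above it in replicate 2, recurred in 3 further regulators. Atf5, a relative of ATF4 under the same translational control, had ratios of 0.00 and 0.63, and Ddit4, an inhibitor of mTORC1, ones of -0.01 and 0.65. Cebpb, a heterodimer partner of ATF4, had ratios of 0.07 and 0.58. Vldlr, the very low density lipoprotein receptor, had -0.03 and 0.34. Over the 9 measured regulators the median was 0.00 in replicate 1 and 0.58 in replicate 2, with 7 of 9 means above 0. Cebpg, another partner of ATF4, had no probe past the filter. At most 1 of 4 Atg7F/F channels and 0 of 4 Atg7+/+ channels of any of its 3 probes were well above background.

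By mean ratio, the synthesis enzymes were the most even group. All 9 that were measured had a mean ratio above 0, between 0.19 and 0.39, with a median of 0.23. Of the 9, 4 were above 0 on all 4 arrays, beside 10.6% of all genes. In replicate 1 alone their ratios ran from -0.17 to 0.26, with 6 of 9 above 0, a wider range than the synthetases' -0.02 to 0.19. In replicate 2 they ran from 0.12 to 0.61. Asns, asparagine synthetase, whose promoter stretch is printed above, had raw intensities in Cy5 and Cy3 of 24218 and 13823 in Atg7F/F extract 1 and of 39096 and 27083 in extract 2. In Atg7+/+ they were 19128 and 13487 in extract 1 and 27295 and 17177 in extract 2. The mean ratio was 0.39 ± 0.31 (1.31-fold), with 0.17 in replicate 1 and 0.60 in replicate 2. Atg7F/F extract 2 was the highest and Atg7+/+ extract 1 the lowest, with Atg7F/F extract 1 below Atg7+/+ extract 2 at 14.11 against 14.42.

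The serine branch, which draws on a glycolytic intermediate, holds Phgdh, Psat1 and Psph in the order of the reactions. Phgdh had ratios of -0.01 and 0.61, and its 3 probes gave means of 0.10, 0.22 and 0.30. Psat1 was the 1 enzyme of this branch above 0 on all 4 arrays, with levels of 10.26 and 10.39 in Atg7F/F and 10.00 and 10.26 in Atg7+/+ and a mean of 0.19 ± 0.10. Its mean was the lowest of the synthesis group, and its ratio was the larger in replicate 1, at 0.26 against 0.12. Psph had ratios of 0.15 and 0.49, and a dimmer probe that shares 40 bases with the one used gave a mean of 0.09 against 0.32.

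Among the mitochondrial one-carbon enzymes, Aldh1l2, which oxidises formyl-tetrahydrofolate, was above 0 on all 4 arrays. Its levels were 7.68 and 8.46 in Atg7F/F and 7.52 and 7.89 in Atg7+/+, with a mean ratio of 0.36 ± 0.29, and 0.57 from the authors' deposited table. Shmt2, which transfers a carbon from serine to folate, had nearly equal replicate means of 0.20 and 0.21. Its ratios followed the dye instead, at -0.01 and 0.03 with Atg7F/F in Cy5 and 0.41 and 0.39 with it in Cy3. Mthfd2 was well above background in 3 of 4 Atg7F/F channels and 1 of 4 Atg7+/+ channels and stayed out of the comparison. Its mean ratio, from signals near the detection limit, was 0.04.

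The proline enzymes gave a ratio above 0 in replicate 2 in each case. Aldh18a1, which makes pyrroline-5-carboxylate, had levels of 8.35 and 8.83 in Atg7F/F and 8.24 and 8.49 in Atg7+/+. Its mean was 0.23 ± 0.16, above 0 on all 4 arrays. Pycr1, which reduces that product to proline, had ratios of -0.01 and 0.45. Cth, which makes cysteine from cystathionine, had -0.17 and 0.60, so its sign differed between replicates, and Cbs, the enzyme before it, was above background in 3 of 4 channels of each genotype and not compared.

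The transporters held both the highest ratio of the list and some of the flattest. Slc6a9, the glycine transporter GlyT1, had raw intensities in Cy5 and Cy3 of 2521 and 1641 in Atg7F/F extract 1 and of 4829 and 3958 in extract 2. In Atg7+/+ they were 1914 and 1378 in extract 1 and 2355 and 1644 in extract 2. Its probe lies on chromosome 4 at 117541835 to 117541894 of mm9. On the normalized scale Atg7F/F extract 2 stood out at 12.20, with the other 3 extracts between 10.63 and 10.98. The ratios were 0.31 and 1.22, the latter 2.32-fold, and the mean was 0.76 ± 0.64 (1.70-fold).

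Slc1a5, which carries glutamine and other neutral amino acids, changed sign between replicates. Its levels were 11.76 and 12.90 in Atg7F/F and 12.00 and 12.04 in Atg7+/+, and its ratios were -0.25 and 0.86. Again only Atg7F/F extract 2 was high. Slc1a4, which carries alanine, serine and cysteine, had levels of 8.27 and 8.73 in Atg7F/F and 8.25 and 8.22 in Atg7+/+, so the genotypes did not overlap, by 0.02 on the log2 scale. Its ratios were 0.02 and 0.51.

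Slc7a5 and Slc3a2 form the heterodimer that exchanges large neutral amino acids such as leucine for glutamine. Slc7a5 was above 0 on all 4 arrays, with levels of 7.71 and 8.21 in Atg7F/F and 7.54 and 7.84 in Atg7+/+ and a mean of 0.28 ± 0.14. With the processed signals its mean was 0.42. Slc3a2, the heavy chain, had a mean of 0.14 ± 0.11.

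The cationic transporters Slc7a1 and Slc7a3, which carry arginine and lysine, had mean ratios near 0. Slc7a3 had levels of 6.51 and 6.79 in Atg7F/F and 6.42 and 6.77 in Atg7+/+ and a mean of 0.06 ± 0.05, above 0 on all 4 arrays. It was near the detection limit and passed the filter through the Atg7F/F channels alone, being well above background in 4 of 4 of these and 2 of 4 Atg7+/+ channels. Its mean was 0.19 without the offset and 0.24 with the processed signals. Slc7a1 had a mean of 0.04 ± 0.11, with -0.03 from its other probe. Slc38a2, the glutamine and alanine transporter SNAT2, had levels of 12.28 and 11.97 in Atg7F/F and 12.31 and 12.19 in Atg7+/+. Its mean of -0.13 ± 0.14 was the lowest of the transporters, and its 4 probes ranged from -0.14 to 0.05.

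The tRNA synthetases, which load amino acids onto their tRNAs, had the lowest median of mean ratios among the 4 groups, though not in replicate 1, where the regulators' was lower. It was 0.10 over the 10 measured, with 0.06 in replicate 1 and 0.16 in replicate 2, against 0.27 over the 26 other measured genes. Under median centring it was 0.18. Gars was not well above background in any channel.

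Eprs, the bifunctional glutamyl-prolyl enzyme, had the highest mean of the synthetases. Its raw intensities in Cy5 and Cy3 were 4073 and 2696 in Atg7F/F extract 1, 4574 and 3491 in Atg7F/F extract 2, 3263 and 2535 in Atg7+/+ extract 1 and 3738 and 2818 in Atg7+/+ extract 2. Every array ratio was above 0 (0.14, 0.24, 0.37 and 0.39), and the mean was 0.28 ± 0.13 (1.22-fold). The levels still overlapped, with 11.64 in Atg7F/F extract 1 and 11.69 in Atg7+/+ extract 2. Its 4 probes all gave means above 0, from 0.04 to 0.31.

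Tars and Lars, which charge threonine and leucine tRNAs, were the other synthetases above 0 on all 4 arrays. Tars had levels of 8.15 and 8.31 in Atg7F/F and 8.0015 and 8.11 in Atg7+/+, which did not overlap, and a mean of 0.18 ± 0.04. Its dimmer probe gave 0.05. Lars had levels of 11.98 and 12.42 in Atg7F/F and 11.96 and 12.10 in Atg7+/+ and a mean of 0.17 ± 0.22. Its difference came from replicate 2, with 0.02 in replicate 1, and the mean over its 3 probes was 0.07. The probes not used for Lars gave 0.006 and 0.018. With the probes averaged, Lars was no longer above 0 on all 4 arrays.

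The remaining 7 synthetases lay between -0.10 and 0.19. Aars, for alanine, had 0.19 ± 0.18, Nars, for asparagine, 0.11 ± 0.09 and Sars, for serine, 0.08 ± 0.10. The other Aars probe past the filter gave 0.03. Its ratios followed the dye, at -0.39 and -0.36 with Atg7F/F in Cy5 and 0.46 and 0.39 with it in Cy3. Iars, for isoleucine, had 0.02 ± 0.13, Wars, for tryptophan, -0.02 ± 0.09 and Mars, for methionine, -0.03 ± 0.01. Wars and Mars turned to 0.072 and 0.036 under median centring. Yars, for tyrosine, had the lowest mean at -0.10 ± 0.29, with levels of 10.85 and 10.84 in Atg7F/F and 10.75 and 11.14 in Atg7+/+. Its sign differed between replicates, at 0.10 and -0.31.

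Ratios of most genes of the list were larger in replicate 2. Of the 36 genes, 21 had a ratio above 0.3 in replicate 2, beside 10.6% of all genes, and 2 in replicate 1, Trib3 and Slc6a9, beside 4.68%. In replicate 1, 18 of 36 lay within 0.1 of 0, a range for which the share of all genes was not taken. The ratio was larger in replicate 2 for 26 of 36 (72.2%), beside 51.9% of all genes, and for 10 of the 12 that were above 0 on all 4 arrays. Ratios above 0 numbered 26 of 36 in replicate 1 (72.2%, beside 50.1% of all genes) and 28 of 36 in replicate 2 (77.8%, beside 51.2%). The count went from 5 to 7 for regulators and from 6 to 9 for synthesis enzymes, was 6 in each replicate for transporters and went from 9 to 6 for synthetases.

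**Figure D3:**
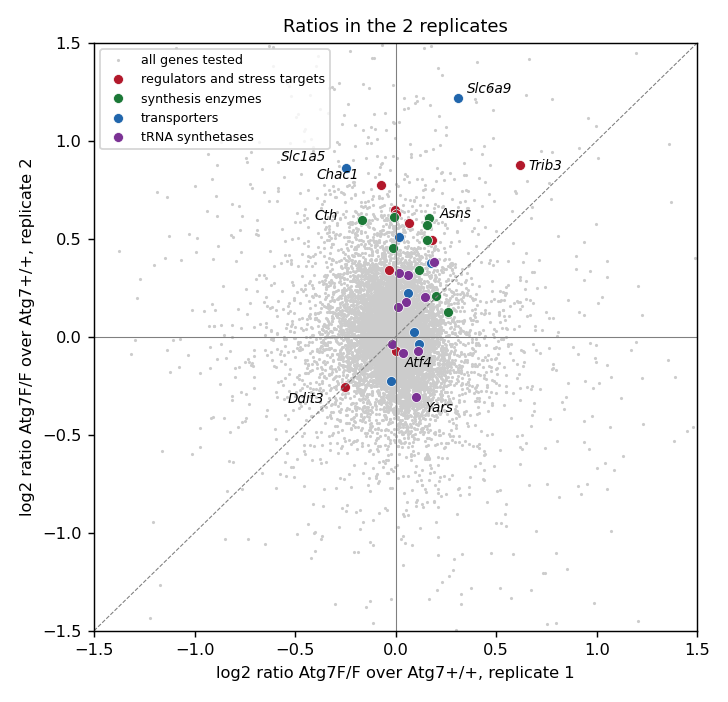
Log2 ratio of Atg7F/F over Atg7+/+ in replicate 1 (horizontal) and replicate 2 (vertical) for all 12367 genes tested (grey) and the 36 measured genes of the list (coloured by role). Axes end at 1.5 in either direction, which leaves out 85 genes and no gene of the list. Most coloured points lie above the dashed line of equal ratios and near 0 on the horizontal axis, while Trib3 lies to the right and Ddit3 on the line below 0.

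The list also differed between extracts within each genotype. Extract 2 exceeded extract 1 for 33 of 36 genes in Atg7F/F cells, beside 52.1% of all genes, and likewise for 33 of 36 in Atg7+/+ cells, beside 51.7%. The median difference of extract 2 from extract 1 was 0.52 in Atg7F/F and 0.25 in Atg7+/+ on the log2 scale, against 0.01 over all genes in each genotype. Thus the difference between the Atg7+/+ extracts (0.25) was about as large as the median ratio between genotypes (0.21). Across the numbers, Atg7F/F extract 2 exceeded Atg7+/+ extract 1 by a median of 0.61, while Atg7F/F extract 1 differed from Atg7+/+ extract 2 by -0.17. With the dyes averaged, the count was 33 or 34 in Atg7F/F and 32 to 34 in Atg7+/+ under 3 other scalings of the channels. The share of all genes was then 51.4% to 71.3% and 52.2% to 73.8%. Both upper values come from scaling to the 75th percentile without loess, under which the median of all genes itself shifted by 0.22 in each genotype, beside 0.64 in Atg7F/F and 0.34 in Atg7+/+ for the list. Taken by dye under that scaling, the Atg7+/+ count was 32 of 36 in Cy5, beside 56.5% of all genes, and 30 of 36 in Cy3, beside 74.9%. The list's median shift in Atg7+/+ was 0.28 against 0.04 over all genes in Cy5, but 0.29 against 0.36 in Cy3. In Atg7F/F it was 0.72 against 0.33 in Cy5 and 0.57 against 0.04 in Cy3.

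By role, the difference between extracts was largest for the regulators and synthesis enzymes. The regulators had medians of 0.76 in Atg7F/F and 0.25 in Atg7+/+ and the synthesis enzymes 0.79 and 0.37, all 9 genes of each being higher in extract 2 of both genotypes. The transporters had 0.38 and 0.09. The synthetases had 0.28 and 0.22, so they differed between extracts about equally in the genotypes. Ddit3 was also higher in extract 2, at 10.79 against 9.86 in Atg7F/F and 11.04 against 10.11 in Atg7+/+, although its genotype ratio was below 0. Atf4 differed by less, at 9.57 against 9.40 and 9.64 against 9.40.

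**Figure D4:**
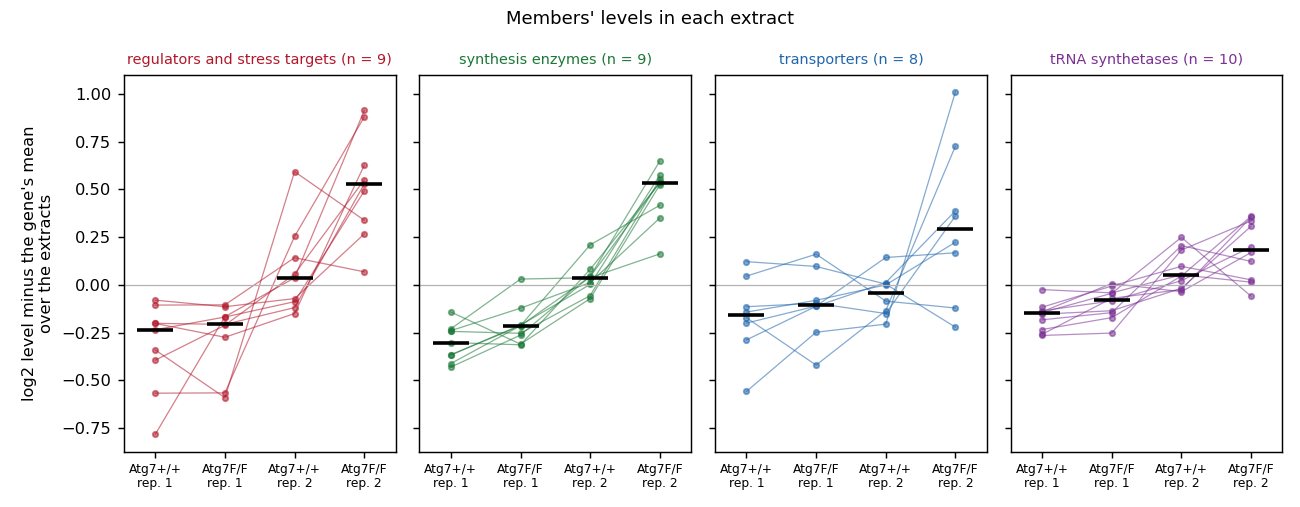
Log2 level of each measured gene in each of the 4 extracts, minus the gene's mean over the extracts, in a panel per role (n = 9, 9, 8 and 10 genes); lines join the values of a gene and black bars are medians over genes. In every panel the medians of both extracts numbered 2 lie above those numbered 1, and Atg7F/F extract 2 is the highest.

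Extracts of the same number were hybridised on the same arrays, so the extract and its arrays cannot be told apart. The labels give a passage range but no passage for a given extract. Levels of cell type markers also differed between extract numbers. Summed over the 6 measured smooth muscle markers, the linear level was 257340 and 195257 in Atg7F/F extracts 1 and 2 and 268136 and 236918 in Atg7+/+. The sum of the 12 endothelial markers was 11081 and 12795 in Atg7F/F and 12544 and 24408 in Atg7+/+. Mmrn2, the brightest, was 4527 and 6462 in Atg7F/F and 5810 and 11766 in Atg7+/+. The other 11 summed to 6554 and 6333 in Atg7F/F and to 6734 and 12642 in Atg7+/+. Of the 12, 10 were lower in Atg7F/F on all 4 arrays, beside 9.95% of all genes. The sum of the 5 measured macrophage and leukocyte markers was 2051 and 4655 in Atg7F/F and 2674 and 3328 in Atg7+/+. Most of it was Lyz2, a lysozyme, at 1401 and 4006 in Atg7F/F, while the other 4 summed to 650 and 649 there. That of the 7 measured adventitial fibroblast markers, of 8 listed with Gli1 never above background, was 7674 and 6043 in Atg7F/F and 9788 and 5882 in Atg7+/+. Dcn, the proteoglycan decorin, was 5303 and 2243 in Atg7F/F and 6676 and 1531 in Atg7+/+. The other 6 summed to 2371 and 3800 in Atg7F/F and to 3112 and 4351 in Atg7+/+, but did not move together. From extract 1 to extract 2, Ly6a, Cd34 and Pdgfra rose in both genotypes and Dpt and Lum fell in both. Pi16 rose in Atg7F/F and fell in Atg7+/+. Such sums weigh the brightest probes most. Of 4 epithelial markers, Krt18 alone was measured, at 561 and 2525 in Atg7F/F and 630 and 3717 in Atg7+/+, while Cdh1 and Epcam were never above background. The part of these differences in the ratios of the ATF4 list was not tested.

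Ratios were set beside the promoter matches as a description, without a test. The 11 measured genes with a match had a median of 0.22, with 0.10 in replicate 1 and 0.45 in replicate 2. The 17 measured genes whose window held no match had a median of 0.20, with 0.06 and 0.22. Above 0 on all 4 arrays were 4 of the 11 and 4 of the 17, beside 10.6% of all genes. Slc6a9, with the highest ratio of the list, was among those without a match, while Trib3 held one 14 bases after its start.

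The upstream and neighbouring genes were measured for comparison. For the eIF2 kinases, eIF2, its exchange factor eIF2B, the phosphatase subunits and the GCN2 regulators Gcn1 and Impact, 15 of 16 genes were measured. Their median ratio was -0.03, and 7 of the 15 means were above 0, beside 6357 of the 12367 genes tested. On all 4 arrays 0 of the 15 were above 0, beside 10.6% of all genes, and 2 were below 0, beside 9.95%. Eif2ak2, the kinase that senses double-stranded RNA, had -0.36 ± 0.15 with an unadjusted p of 0.0343 from limma over all genes and an adjusted p of 0.9998. Eif2ak4, the kinase that senses uncharged tRNA, had -0.11 ± 0.11, and Eif2b1, an eIF2B subunit, had -0.23. None of the 15 passed the adjusted test, and the difference between this list and the targets was not tested.

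Of 12 other ATF4 targets, 11 were measured, with a median of 0.18, 0.00 in replicate 1 and 0.25 in replicate 2. On all 4 arrays 3 of the 11 were above 0, beside 10.6% of all genes, and 1 was below 0, beside 9.95%. Mthfd1l, a mitochondrial folate enzyme, had 0.34 ± 0.13 and Slc7a11, the cystine transporter, 0.29 ± 0.09. Their unadjusted p-values from limma over all genes were 0.0388 and 0.0470, and the adjusted p of each was 0.9998. Slc7a11 was dim, with levels of 6.91 and 6.86 in Atg7F/F and 6.55 and 6.64 in Atg7+/+. It was still well above background in 4 of 4 channels of each genotype. Xpot, which exports tRNA from the nucleus, had 0.21 ± 0.14. Extract 2 exceeded extract 1 for 10 of these 11 genes in Atg7F/F, beside 52.1% of all genes, and for 9 of 11 in Atg7+/+, beside 51.7%.

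Synthetases outside the list had medians at or just below 0. For the 7 measured of 9 other cytosolic synthetases the median was 0.15 in replicate 1, -0.17 in replicate 2 and 0.00 in the mean. Of the 7, 1 was above 0 on all 4 arrays, beside 10.6% of all genes. That was Dars, for aspartate, at 0.45 ± 0.43, while Cars, for cysteine, had -0.21 and Farsa, a phenylalanyl subunit, -0.14. The 15 measured of 17 mitochondrial synthetases had a median of -0.03, between -0.10 and 0.04. Of the 15, 0 had one sign on all 4 arrays, beside 10.6% of all genes higher and 9.95% lower. Iars2 and Tars2 both had -0.10 and Mars2 -0.08. The 3 scaffold proteins of the multisynthetase complex had a median of -0.07, with Aimp1 at 0.15, Aimp2 at -0.07 and Eef1e1 at -0.13. In replicate 1, ratios were above 0 for 9 of the 10 listed synthetases, 5 of 7 other cytosolic and 10 of 15 mitochondrial ones. In replicate 2 they were above 0 for 6 of 10, 1 of 7 and 2 of 15. Of all genes, 50.1% were above 0 in replicate 1 and 51.2% in replicate 2. The difference between the counts of these lists was not tested.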

How the data were processed

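Spot brightness was deposited as mean intensity with a median local background intensity per channel, not normalized. The scanner software was Agilent Feature Extraction 10.1.1.1 (file headers and submitters' processing notes), which also wrote background-subtracted, dye-normalized intensities that the authors deposited. The authors' deposited table of log2 ratios equalled the ratio of these processed signals for 100% of probes (within 0.001), with Atg7F/F over Atg7+/+ on every array and no further centring, at array medians from -0.094 to 0.199. Genotype and dye of each channel came from the labels. All arrays lay on 1 slide.

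Background was corrected with normexp (offset 50), loess within arrays gave control spots weight 0, and spots of a probe were averaged in limma 3.58.1 (R 4.3.3). Non-uniform outliers took out 36 probes. A probe was kept when well above background in at least 1 genotype on all 4 arrays, and the brightest kept probe stood for a gene. Names came from the files, updated through RefSeq accessions for 25097 probes; genes of the list were matched by the files' own names. Probe coordinates are on mm9, whose annotation was not used here. Dye-swapped arrays were averaged, giving n = 2, and ratios were tested against 0 (lmFit and eBayes, two-sided, 3.18 degrees of freedom, Benjamini-Hochberg over 12367 genes); p-values in the results are from this fit. Extract levels are log2 intensities after loess and alignment of average signals between arrays (Aquantile), with the dyes averaged. The number of arrays limits the precision. The offset understates the ratios of dim probes.

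The extracts hybridised together are paired by that scheme, so the replicate block is part of the test; their deviations from the genotype means correlated at 0.18 across genes. The genes, role groups and other lists were chosen with earlier results of these data known. Named with extract values were Atf4, Ddit3, Trib3, Chac1 and Asns, every gene of the list with the same sign on all 4 arrays, and the highest and lowest of each role group; from other lists, up to 3 genes of smallest unadjusted p. Slc1a4 and Slc1a5 were added after their values were seen. Alternatives covered the offset, background, processed and deposited values, median centring, filters, probe choice, block, prior trend and each replicate left out. The code was tested on simulated data.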

Additional observations from a re-analysis of the deposited data

How the results depend on the processing

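No gene of the ATF4 list passed the adjusted test in any fit, and the smallest adjusted p of any of them was 0.216, for Trib3 with each dye swap as a random block. That fit, which treats 4 arrays as partly independent at an estimated correlation of 0.474, called 7 genes of the whole array higher and 2 lower, none of them in the list. Without the replicate block, which drops the pairing of the extracts hybridised together, 1 gene of the whole array was called higher and again none of the list; the cause was not tested.

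All 36 measured genes kept the direction of their mean ratio without the offset, without background subtraction, with the processed signals and with the mean over a gene's probes. The deposited table repeats the processed signals, and the filters, the blocks and the prior trend leave the ratios of these genes as they are. Under median centring, Atf4 turned to 0.023, Wars to 0.072 and Mars to 0.036, against a shift of 0.042 in the median of all genes. The number above 0 on all 4 arrays was then 6 and below 0 was 0, against 12 and 1, and the median of the synthetases was 0.18 against 0.10. Without the filter on dim probes, 2 genes were below 0 on all arrays, since Cbs was added. The cause of the changes under median centring was not tested. With 1 replicate left out and 2 arrays remaining, 16 to 28 genes were above and 3 to 5 below 0 on every array, beside 29.3% to 38.1% and 29.9% to 35.0% of all genes, and medians ranged from 0.06 to 0.34 over the measured genes, 0.00 to 0.58 for regulators, 0.15 to 0.49 for synthesis enzymes, 0.08 to 0.30 for transporters and 0.06 to 0.16 for synthetases, the lower value being replicate 1 each time. Over the alternatives with both replicates the median of the measured genes was 0.19 to 0.27. The scalings of channels behind the counts of extract 2 against extract 1 were chosen after seeing the data.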
